A study of Mus musculus with 20 samples.

Results

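The 10 genes described here are the core of the mammalian circadian clock: the activators Clock, Arntl (BMAL1) and Npas2, the repressors Per1, Per2, Per3, Cry1, Cry2 and Nr1d1 (REV-ERBα), and the output gene Dbp. They were selected by symbol, 10 of the 48440 genes in the count table, because Clock had been among the genes higher in knockout than in wild-type mice in these data. Their knockout against wild-type values are therefore a description, and where tests across all genes are printed for them, these support nothing about the genes. The series holds RNA-seq of liver and of gonadal fat pad from C57BL/6-background mice, either wild type (WT) or deficient in protein kinase C epsilon under the label AdEpsKO (KO in what follows). What AdEpsKO stands for is not spelled out in the labels, so the tissue of the deletion is unknown, and KO liver means liver of mice with that label. All mice, WT and KO alike, were fed a high fat diet over 1 week and went without food for the last 6 h. WT fat, KO fat, WT liver and KO liver each held 5 libraries from 5 mice. The sources used here do not give the time of day of tissue collection, the light cycle, or the age and sex of the mice.

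In nearly every cell, CLOCK or its relative NPAS2 pairs with BMAL1 and switches on genes that carry E-boxes, among them the Per and Cry genes, Nr1d1 and Dbp. PER and CRY proteins then return to the nucleus and block this pair, while REV-ERBα represses Arntl through ROR response elements, and the PAR bZIP factor DBP passes the rhythm on through D-boxes. In rodent liver and fat, Arntl, Npas2 and, less strongly, Clock transcripts peak at nearly the opposite time of day from Nr1d1 and Dbp, with the Per genes following Dbp and Cry1 coming later.

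These control elements can be read in the promoters of several members. RefSeq start sites on GRCm38.p6 were matched for 9 of the 10 genes, giving 13 promoters, and windows of 300 bases were searched on both strands. The sequences below, 5′ to 3′, show the bases before the start site, except for Arntl, where a short stretch after it is shown. They were chosen because they hold the motifs of the loop, and Clock because it is the member that led to the selection. Capitals mark an E-box (CACGTG), a D-box (TTATGTAA or TTATGCAA) or the core of a ROR element (TAGGTCA or TGGGTCA), and no matches overlapped.
Per1, chr11:69098699-69098948, plus strand: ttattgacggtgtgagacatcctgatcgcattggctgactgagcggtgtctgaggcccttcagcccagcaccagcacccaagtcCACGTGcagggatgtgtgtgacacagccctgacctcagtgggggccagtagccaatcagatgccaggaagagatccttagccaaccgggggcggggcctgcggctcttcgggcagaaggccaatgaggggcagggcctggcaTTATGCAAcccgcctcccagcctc
Per3, chr4:151044666-151044915, minus strand: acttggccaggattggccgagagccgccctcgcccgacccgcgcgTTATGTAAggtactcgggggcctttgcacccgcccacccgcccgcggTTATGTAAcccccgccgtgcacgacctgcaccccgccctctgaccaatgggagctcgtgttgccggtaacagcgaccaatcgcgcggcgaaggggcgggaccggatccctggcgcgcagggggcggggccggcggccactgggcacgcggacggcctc
Cry1, chr10:85185055-85185304, minus strand: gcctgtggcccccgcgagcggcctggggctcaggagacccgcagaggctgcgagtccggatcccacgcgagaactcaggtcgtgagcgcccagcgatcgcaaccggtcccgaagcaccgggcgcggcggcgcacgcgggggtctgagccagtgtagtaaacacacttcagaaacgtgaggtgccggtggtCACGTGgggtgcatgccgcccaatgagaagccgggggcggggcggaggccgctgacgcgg
Arntl, chr7:113207530-113207558, plus strand: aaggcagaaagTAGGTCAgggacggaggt
Clock, chr5:76304793-76305042, minus strand: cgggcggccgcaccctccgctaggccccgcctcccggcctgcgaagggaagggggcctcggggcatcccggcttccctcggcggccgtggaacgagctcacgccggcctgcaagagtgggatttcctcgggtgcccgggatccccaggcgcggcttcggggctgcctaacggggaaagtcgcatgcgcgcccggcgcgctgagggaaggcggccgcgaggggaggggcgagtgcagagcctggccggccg

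Counting from 0 at the start site, the E-box lay at -166 in Per1 and at -60 in Cry1. A D-box lay at -24 in Per1, and a pair of them at -205 and -158 in Per3. The ROR element core in the Arntl window lay at 30, downstream of the start. Among all 32851 RefSeq promoters of this length, 7.15% held the E-box, 1.66% a D-box and 6.45% the ROR element core. The windows of Clock, Npas2, Cry2, Nr1d1 and Dbp held none of these letter strings. A match is a string of letters and not a measured binding site.

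Library totals ran from 12880933 to 17276907 expected counts in fat and from 13836370 to 20784145 in liver. The fat libraries held adipocyte transcripts and the liver libraries hepatocyte transcripts, with Adipoq at 1530 to 4960 CPM (counts scaled to library size) in fat and at most 4.43 CPM in liver, and Alb at 80400 to 115000 CPM in liver and 13.7 to 462 CPM in fat. Prkce, the targeted gene, ranged from 22.3 to 35.1 CPM in KO fat (median 34.6) and from 35.2 to 67.1 CPM in WT fat (median 51.3). In liver it ranged from 8.64 to 14.3 CPM in KO (median 10.6) and from 10.6 to 20.0 CPM in WT (median 12.9). Several libraries stood apart. KO fat library 2 held transcripts of bladder-type epithelium, with 2130 CPM summed over 8 markers against at most 28.3 CPM in any other fat library. It also had 929 CPM summed over 9 uterus and oviduct epithelium markers, against at most 184 CPM in any other fat library. That list summed to 151 to 215 CPM in WT liver and 157 to 271 CPM in KO liver, so its sum is not particular to such epithelium. WT fat library 3 and KO fat library 3 had the highest sum of 10 macrophage markers in their groups, at 3900 and 2710 CPM. KO liver library 5 had the steepest trend with base composition, with values falling by 0.402 on the log2 scale per 10 percentage points of GC content, against trends between -0.036 and 0.191 in the other liver libraries.

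Per kilobase of merged exons, Nr1d1 and Dbp were the most abundant members in both tissues and Arntl and Npas2 the least. In WT fat, Nr1d1 stood at 64.2 ± 13.0 and Dbp at 58.8 ± 12.2 CPM per kb (SD, n = 5), a gap within the spread. Per1 (20.7 ± 5.21), Per3 (16.7 ± 5.08), Cry2 (13.5 ± 3.01) and Per2 (10.7 ± 2.4) followed, and each neighbour in that order differed from the next by less than 1 SD of the higher gene. Clock at 3.96 ± 0.404 CPM per kb lay above Cry1 at 3.09 ± 0.239, a gap larger than either SD. Arntl (0.356 ± 0.231) and Npas2 (0.181 ± 0.052) were lowest and not separated beyond the SD of Arntl. In WT liver, Dbp led with 44.6 ± 6.98 CPM per kb, followed by Nr1d1 with 23.2 ± 5.25. Per1 (12.8 ± 4.00), Per3 (10.5 ± 1.16), Per2 (10.4 ± 2.4) and Cry2 (8.40 ± 0.781) came next and were not separated from their neighbours by more than the larger SD. Cry1 (2.69 ± 0.991) and Clock (2.06 ± 0.341) were close to each other, and Arntl was at 0.141 ± 0.0388. With the longest transcript as the length, Dbp ranked above Nr1d1 in WT fat too, at 95.8 against 72.6 CPM per kb. The low Arntl level and the high Dbp and Nr1d1 levels were shared by all 4 groups, as the plot of levels per kilobase shows.

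**Figure D1:**
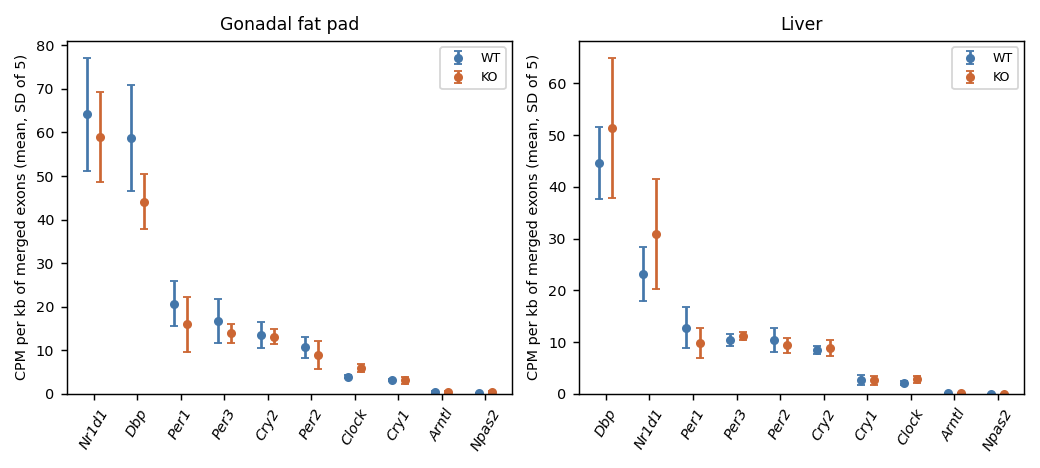
Level of each clock gene in CPM per kilobase of merged exons (vertical axis), ordered by the WT mean, in fat (left) and liver (right). Points are means and bars the SD of 5 libraries, WT in blue and KO in orange; Nr1d1 and Dbp were highest and Arntl and Npas2 lowest in each group.

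Among the activators, Clock was the member with the widest separation of KO from WT in fat. The 5 WT fat libraries held 54.5, 61.8, 52.3, 56.7 and 46.7 CPM, and the 5 KO fat libraries 86.2, 80.5, 69.4, 71.4 and 97.9 CPM. Every KO library lay above every WT library. The log2 difference, KO minus WT, was 0.58 (SE 0.11), a ratio of 1.49. Of all 14707 genes tested in fat, 0.592% had all KO libraries above all WT libraries; Clock was picked for this contrast, so nothing is read from that share. In these bulk samples, more RNA per cell and a different mix of cells cannot be told apart. After removal of the GC and transcript-length trend of each library, the log2 difference was 0.46.

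In liver, Clock was at 20.8, 27.8, 28.2, 31.8 and 32.7 CPM in WT and at 42.0, 34.7, 28.3, 35.2 and 51.6 CPM in KO. The groups overlapped: 4 of 5 KO libraries were above the highest WT library and KO library 3 was inside the WT range. The log2 difference was 0.44 (SE 0.16), a ratio of 1.36. In liver 1.51% of the 13298 genes tested had KO entirely above WT, and Clock was not among them. The highest value came from KO liver library 5, the library with the steepest GC trend, and Clock has the lowest GC content of the members at 40.9%. Without that library the log2 difference was 0.31, and without KO liver library 3 it was 0.53. With the GC and length trends removed in all libraries it was 0.28. The part of base composition in the Clock difference was not tested.

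Several marker lists had mostly lower KO values and others did not, without any marker called by edgeR in either tissue. Uterus and oviduct epithelium markers had positive log2 differences for 3 of 5 tested in fat (median 0.74) and 3 of 6 in liver (median -0.01). Hepatocyte markers in fat had them for 5 of 10 (median -0.02), and the 1 bladder-type marker tested in fat had 2.47. In liver, adipocyte markers were negative for 4 of 5 tested (median -0.29), while their sum was 993 to 2030 CPM in KO and 781 to 1240 CPM in WT. Most of that sum was Car3, at 637 to 1930 CPM over the liver libraries. The next highest of these markers, Pnpla2, was at most 80.8 CPM there, so the sum mainly reflects Car3. In fat, negative log2 differences were found for 7 of 7 erythroid markers (median -1.25, 6 at an unadjusted p under 0.05), 10 of 10 skeletal muscle markers (median -1.06, 0), 9 of 10 adipocyte markers (median -0.29, 2) and 7 of 9 macrophage markers tested (median -0.38, 1). In liver they were found for 7 of 7 erythroid markers (median -1.03, 5), 7 of 7 skeletal muscle markers tested (median -2.87, 0), 10 of 10 macrophage markers (median -0.69, 9) and 8 of 10 hepatocyte markers (median -0.20, 3). By edgeR, 7.13% of all genes tested in fat and 13.1% in liver reached an unadjusted p under 0.05. The summed levels of erythroid, macrophage, skeletal muscle and adipocyte markers overlapped between genotypes in fat. Those of hepatocyte markers did not, at 1470 to 2290 CPM in KO fat and 2410 to 5080 CPM in WT fat. Most of that sum was Cyp2e1, at 1430 to 4430 CPM over the fat libraries (median 2150), while Alb had a median of 51.0 CPM. The share of all genes with KO entirely below WT was not counted, so nothing is read from this separation. Erythroid markers ranged from 370 to 1290 CPM in KO fat and from 467 to 3160 CPM in WT fat, macrophage markers from 654 to 2710 and from 922 to 3900 CPM, skeletal muscle markers from 19.0 to 621 and from 16.9 to 948 CPM, and adipocyte markers from 32900 to 52300 and from 39200 to 60200 CPM. In liver the summed levels of all these lists overlapped. Skeletal muscle markers were highest in WT liver libraries 2 and 4, at 171 and 293 CPM, against at most 32.2 CPM in any other liver library. Erythroid markers ranged from 192 to 507 CPM in KO liver and from 328 to 1010 CPM in WT liver, macrophage markers from 422 to 530 and from 456 to 870 CPM, skeletal muscle markers from 0.599 to 32.2 and from 0.923 to 293 CPM, and hepatocyte markers from 125000 to 146000 and from 143000 to 165000 CPM. Their part in the Clock values and in those of the other members was not tested.

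Arntl, the partner of CLOCK, had low counts, 26 to 87 counts per library in fat and 10 to 27 in liver, which limits its precision. In fat the WT libraries held 1.91, 1.56, 5.77, 2.06 and 2.10 CPM and the KO libraries 1.96, 2.45, 6.40, 2.91 and 4.12 CPM. The groups overlapped, and library 3 was the highest in each. The log2 difference was 0.41 (SE 0.43), and it was 0.90 without WT fat library 3 and 0.10 without KO fat library 3. In liver, Arntl ranged from 0.579 to 1.35 CPM in WT and from 0.665 to 1.37 CPM in KO, with a log2 difference of -0.04 (SE 0.29).

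Npas2, which can replace CLOCK, was at 0.917, 0.539, 1.18, 0.707 and 0.985 CPM in WT fat and at 0.828, 4.90, 2.21, 0.323 and 0.969 CPM in KO fat. Its log2 difference of 1.09 (SE 0.62) depended on KO fat library 2, the library high in bladder-type and uterus and oviduct epithelium markers. The difference was 0.32 without that library and 1.37 without KO fat library 4. In liver, Npas2 had at most 3 counts in a WT library and at most 5 in a KO library, too few for a comparison.

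**Figure D2:**
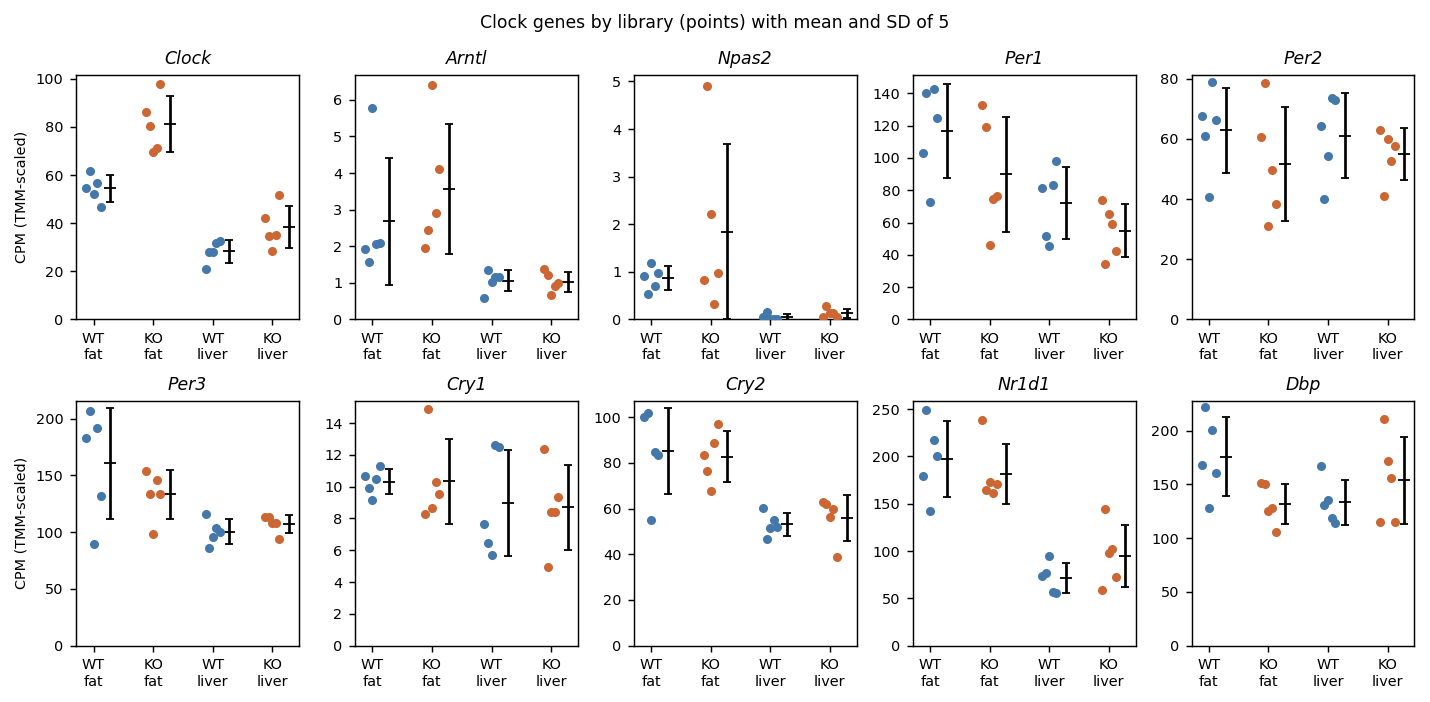
Level of each clock gene in each library, in CPM with TMM-scaled library sizes (vertical axis, scaled to each gene), for WT fat, KO fat, WT liver and KO liver. Points are single libraries, with the mean and SD of 5 drawn to their right; for Clock in fat the KO points (69.4 to 97.9 CPM) lie above the WT points (46.7 to 61.8 CPM), and the groups overlap for Clock in liver and for every other member in both tissues.

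The Per genes, whose proteins carry the repression of CLOCK and BMAL1, had lower KO means in fat with overlapping libraries. Per1 held 103, 140, 72.4, 143 and 125 CPM in WT fat and 133, 119, 45.8, 74.8 and 76.7 CPM in KO fat, a log2 difference of -0.38 (SE 0.28). Library 3 was the lowest of each group. Per2 ranged from 40.6 to 79.0 CPM in WT fat and from 31.0 to 78.6 CPM in KO fat, with a log2 difference of -0.28 (SE 0.25). Per3 ranged from 89.4 to 207 CPM in WT fat and from 98.1 to 154 CPM in KO fat, with a log2 difference of -0.27 (SE 0.22). For none of the Per genes were the KO and WT libraries separate. Single libraries moved these values: without KO fat library 3 the difference was -0.21 for Per1 and -0.15 for Per2, without KO fat library 2 it was -0.49 for Per2, and for Per3 it was -0.42 without WT fat library 3 and -0.16 without WT fat library 2. In liver, Per1 held 81.2, 51.9, 45.3, 83.0 and 98.4 CPM in WT and 74.1, 34.3, 65.4, 59.0 and 42.4 CPM in KO, with overlap. The log2 difference there was -0.39 (SE 0.26), -0.25 without WT liver library 5 and -0.52 without KO liver library 1. Per2 (-0.15, SE 0.16) and Per3 (0.09, SE 0.10) were close to equal in liver.

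The cryptochromes, the partners of the PER proteins, were level between genotypes within their errors. Cry1 had a log2 difference of 0.01 (SE 0.17) in fat and -0.04 (SE 0.27) in liver. Cry2 had -0.04 (SE 0.16) in fat and 0.07 (SE 0.12) in liver. Their KO and WT ranges overlapped in both tissues.

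Nr1d1, whose product represses Arntl, held 179, 249, 142, 217 and 200 CPM in WT fat and 238, 165, 173, 161 and 171 CPM in KO fat, so the groups overlapped and KO library 1 stood above the other KO libraries. The log2 difference was -0.12 (SE 0.16), and it was -0.24 without KO fat library 1 and -0.02 without WT fat library 2. In liver it was at 73.4, 76.8, 94.6, 56.6 and 55.4 CPM in WT and at 58.9, 144, 98.2, 102 and 72.6 CPM in KO, a log2 difference of 0.42 (SE 0.23). In liver 3 of 5 KO libraries were above the highest WT library. The difference was 0.22 without KO liver library 2 and 0.55 without KO liver library 1.

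Dbp, the output gene, held 168, 222, 128, 201 and 161 CPM in WT fat and 151, 150, 125, 128 and 106 CPM in KO fat. The KO values lay in the lower part of the WT range or under it, with 2 of 5 below the lowest WT library. The log2 difference was -0.41 (SE 0.15). In liver, Dbp was at 167, 131, 136, 119 and 114 CPM in WT and at 115, 211, 172, 156 and 115 CPM in KO, with overlap. The log2 difference there was 0.20 (SE 0.17), 0.07 without KO liver library 2 and 0.30 without WT liver library 1.

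The selection asked whether the higher Clock level has the form of a shift in phase, in which genes that peak together move together and genes of the opposite phase move the other way. In fat, the 3 activators had positive differences (0.41 to 1.09 on the log2 scale), Per1, Per2, Per3, Nr1d1 and Dbp had negative ones (-0.41 to -0.12), and Cry1 and Cry2 were near 0. In liver, Clock was positive and Arntl near 0, while Nr1d1, Dbp and Per3 were positive and Per1 and Per2 negative. With GC and length trends removed, the liver values were 0.28 for Clock, 0.55 for Nr1d1, 0.33 for Dbp and 0.14 for Per3. They were -0.24 for Per1, -0.05 for Per2 and -0.05 for Arntl. The median over the members was -0.08 in fat (10 tested) and 0.07 in liver (9 tested), against 0.001 and 0.000 over all genes tested. The edgeR quasi-likelihood test called 0 of 10 members in fat and 0 of 9 in liver at an adjusted p under 0.05, where 0% and 0.00752% of all genes were called. At an unadjusted p under 0.05 it gave 2 members in fat (Clock and Dbp) and 1 in liver (Clock), where 7.13% and 13.1% of all genes reached that level; these numbers come from the contrast that chose the genes and are printed for completeness. DESeq2 called Clock in fat (adjusted p = 0.00677) and not in liver (adjusted p = 0.188), and none of the other members in either tissue, and limma-voom called no member. No series of collection times is labelled and the time of each mouse is not given, so a shift in phase, a difference in collection time, a change of amplitude and a change of mean level cannot be told apart.

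**Figure D3:**
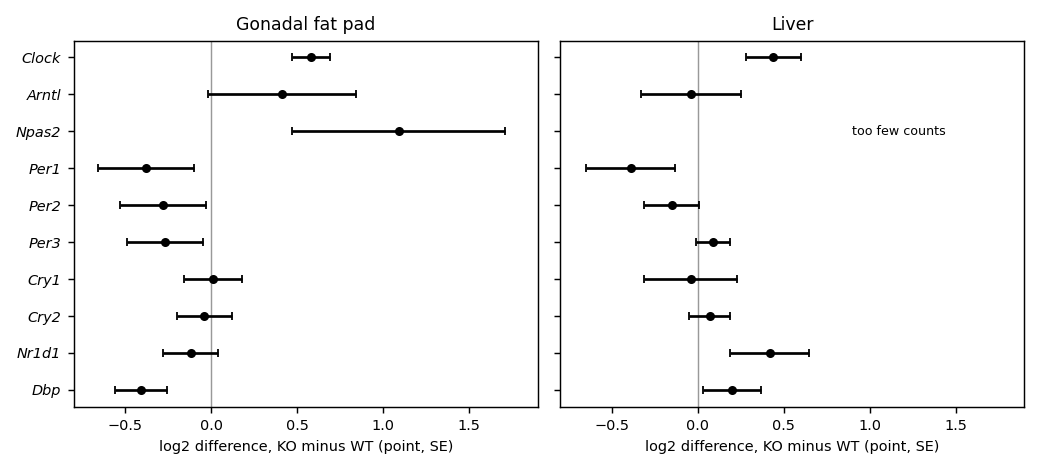
Log2 difference between KO and WT (horizontal axis) for each clock gene in fat (left) and liver (right). Points are edgeR estimates and bars 1 SE, with 5 libraries per group; Clock was positive in both tissues (0.58 and 0.44), while Nr1d1 and Dbp were below 0 in fat and above 0 in liver.

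The difference between the tissues was taken as the KO effect in fat minus that in liver, in a fit of all 20 libraries. Dbp had the largest separation relative to its error at -0.62 on the log2 scale (95% interval -1.13 to -0.11), followed by Nr1d1 at -0.54 (-1.15 to 0.06) and Per3 at -0.37 (-0.87 to 0.14). The edgeR adjusted p was 0.903 for Dbp and for Nr1d1, and 0.938 for Per3. For Clock the difference was 0.13 (-0.29 to 0.55), with an edgeR adjusted p of 0.984. None of the 10 members was called by edgeR, limma-voom or DESeq2, and edgeR called 0% of the 15652 genes tested; 1 member, Dbp, had an unadjusted p under 0.05 (0.0193). By edgeR, 839 of the 15652 genes reached that unadjusted level, so nothing is read from 1 member in 10 reaching it. Without KO liver library 2 the difference for Nr1d1 was -0.35, and without KO liver library 1 it was -0.67. The opposite signs of Nr1d1 and Dbp in fat and liver did not pass a test of the difference.

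WT fat and WT liver were compared without the KO mice, a contrast that played no part in the selection. With TMM scaling, edgeR called 4 of 9 members. Nr1d1 was higher in fat than in liver by 0.55 on the log2 scale (95% interval 0.17 to 0.92, adjusted p = 0.0128). Per2 was lower in fat, at -0.88 (-1.30 to -0.46, adjusted p = 0.00140), and so were Cry1, at -0.72 (-1.21 to -0.23, adjusted p = 0.0115), and Dbp, at -0.52 (-0.86 to -0.19, adjusted p = 0.00871). Of all 14739 genes tested, 38.4% were called higher in fat and 35.9% higher in liver, so a share of 4 in 9 called is not above the background. Clock (0.02), Arntl (0.42), Per1 (-0.23), Per3 (-0.25) and Cry2 (-0.24) did not pass the test. These directions depend on the scaling. With plain library sizes the median of all genes moved from 0.043 to 0.974 on the log2 scale and 82.5% of calls were higher in fat, against 51.7% with TMM. Under plain library sizes Per2 (0.05), Cry1 (0.21) and Dbp (0.40) turned to positive differences, with Per2 and Cry1 no longer called (edgeR adjusted p = 0.81 and 0.381) and Dbp called higher in fat (0.0194), and Nr1d1 was at 1.47. In both scalings Nr1d1 was above the all-gene median and Per2, Cry1 and Dbp were below it.

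Variation between mice of the same group gives a view of the clock that is independent of genotype. For this, each library's log2 CPM was taken minus its group mean, and each member was compared with Arntl over the 10 libraries of a tissue. In fat, mice with more Arntl had less Per1 (Pearson r = -0.90, Spearman rho = -0.84, permutation p = 0.00282, adjusted p = 0.0254 over 18 relations), less Per3 (r = -0.88, rho = -0.77, permutation p = 0.00117, adjusted p = 0.0211) and less Per2 (r = -0.85, rho = -0.72, permutation p = 0.0062, adjusted p = 0.0372). Dbp (r = -0.79, permutation adjusted p = 0.0524), Cry2 (r = -0.74, adjusted p = 0.107 by permutation) and Nr1d1 (r = -0.72, adjusted p = 0.107 by permutation) had the same sign without passing the threshold. Clock did not follow this pattern beyond its error (r = -0.32, rho = -0.49, permutation adjusted p = 0.644).

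The relations in fat rest on library 3 of each genotype, the pair of libraries with the highest Arntl. Their Arntl values lay 1.23 and 0.94 log2 units above the group mean, and they also had the highest macrophage marker sums of their groups (3900 and 2710 CPM, against 654 to 2110 CPM in the other fat libraries); the part of those cells in the relation was not tested. Without these libraries, r over the other 8 was -0.74 for Per1 (permutation adjusted p = 0.343), -0.59 for Per2 (permutation adjusted p = 0.489) and -0.46 for Per3 (permutation adjusted p = 0.343), and no relation passed. Dbp kept its size, with r = -0.84 over the 8 libraries (permutation adjusted p = 0.0804 over 9 relations). With GC and length trends removed from all 10 libraries, Per1, Per2, Per3 and Dbp passed in fat, with r between -0.93 and -0.83 and permutation adjusted p between 0.0227 and 0.0343. These too depended on library 3 of each genotype for some members. Without that pair, r with trends removed was -0.73 for Per1, -0.61 for Per2, -0.26 for Per3 and -0.82 for Dbp.

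**Figure D4:**
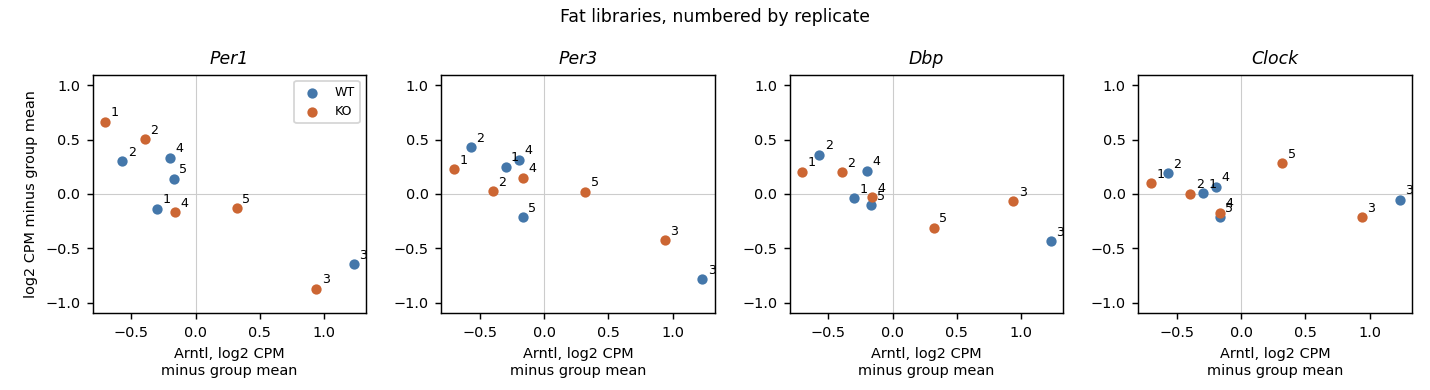
Deviation of Per1, Per3, Dbp and Clock (vertical axes) against that of Arntl (horizontal axis) in the 10 fat libraries, each as log2 CPM minus the mean of its genotype. Points are libraries, numbered by replicate, with WT in blue and KO in orange; library 3 of each genotype lies far to the right and low for Per1 and Per3, whereas Clock shows no slope beyond its scatter (r = -0.32).

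In liver none of the 9 relations with Arntl passed, the largest being that with Clock (r = 0.70, rho = 0.47, permutation p = 0.0418, adjusted p = 0.107). It rested on WT liver library 1 and KO liver library 3, without which r was -0.03. With GC and length trends removed, the relation of Arntl and Clock in liver had r = 0.86 (rho = 0.67, permutation adjusted p = 0.0227), and r = 0.48 without those libraries. Arntl had 10 to 27 counts per liver library, which limits any relation with it. Against Dbp, which had far more counts, livers with more Dbp had more Nr1d1 (r = 0.85) and less Clock (r = -0.83, rho = -0.92). Cry1 (r = -0.73) and Npas2 (r = 0.72, at most 5 counts per library) went with them. Each of these had a permutation adjusted p of 0.0511, and none of 18 such relations passed. Per1 (r = -0.33) and Per2 (r = -0.46) were negative in liver, and Per3 (r = 0.44) positive. For Clock and Dbp in liver, r was -0.64 with GC and length trends removed (permutation adjusted p = 0.166). In fat, Clock and Dbp had r = 0.21 without that removal (permutation adjusted p = 0.588). Clock has the lowest and Dbp the highest GC content of the members (40.9% and 61.6%). The map of deviations shows the opposed fat libraries and, in liver, Nr1d1 and Dbp high together in KO library 2.

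**Figure D5:**
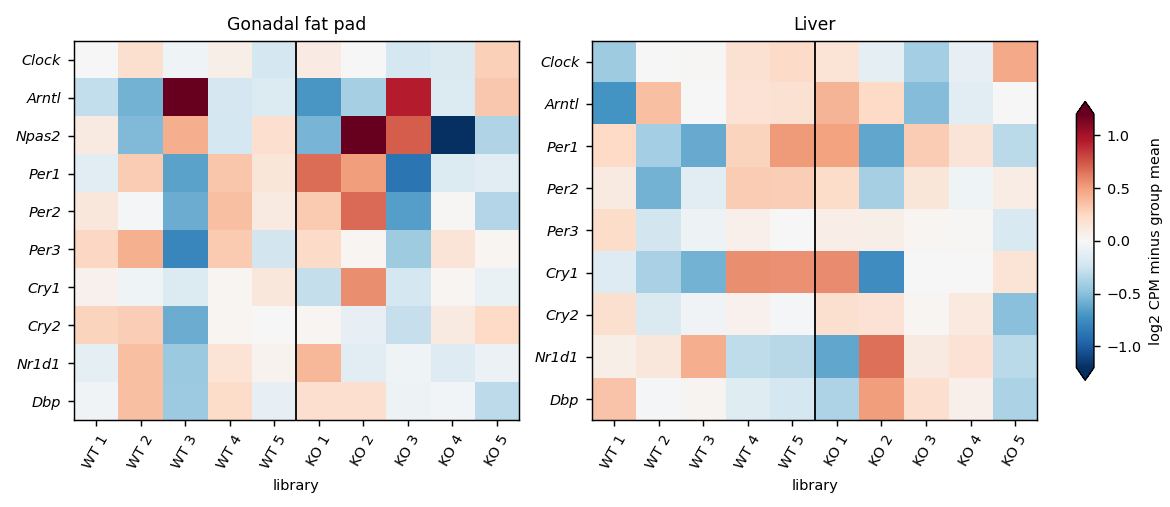
Deviation of each clock gene (rows) from its group mean in each library (columns), in log2 CPM, for fat (left) and liver (right); red is above and blue below the mean of the 5 libraries, and Npas2 is left out in liver for lack of counts. In fat library 3 of both genotypes, Arntl is high where Per1, Per2 and Per3 are low.

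Fat and liver libraries of the same genotype and number were compared to see whether a member deviated alike in both tissues. None of the 10 relations passed a permutation test. The closest was Nr1d1 with r = -0.63 and rho = -0.70 (permutation p = 0.0585, adjusted p = 0.585), and Clock had r = 0.50 (permutation adjusted p = 0.676), which was -0.05 without the 2 pairs farthest from the median. The sources used here do not say whether libraries of the same number came from the same mouse.

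Of 47 other genes of the clock and its outputs, 46 were tested in each tissue, and edgeR and limma-voom called 0 in fat, in liver or in the difference between them, while DESeq2 called 1 in liver. An unadjusted p under 0.05 was reached by 3 of 46 in fat (6.52%, against 7.13% of all genes) and by 5 of 46 in liver (10.9%, against 13.1%), shares near the background. In fat, Ciart, a repressor of the CLOCK and BMAL1 pair, was at 8.40, 11.0, 6.18, 9.96 and 7.29 CPM in WT and at 5.80, 7.15, 4.42, 3.88 and 3.07 CPM in KO, a log2 difference of -0.81 (SE 0.25, edgeR adjusted p = 0.687). The groups overlapped in 1 KO library. Por, which encodes the reductase of cytochrome P450 enzymes, had -0.48 (SE 0.15), and Ppp1cb, a catalytic subunit of protein phosphatase 1, had 0.44 (SE 0.19) with its highest value in KO fat library 2 (383 CPM); the edgeR adjusted p was 0.687 for each.

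In liver, Nr1d2 (REV-ERBβ), the relative of Nr1d1, had a log2 difference of 0.29 (SE 0.10, edgeR adjusted p = 0.261), with KO (184 to 219 CPM) above WT (133 to 180 CPM), a separation that 1.51% of all genes in liver had. Hlf, a PAR bZIP relative of Dbp, had 0.27 (SE 0.11), Bhlhe41 (DEC2), an E-box repressor, had 1.05 (SE 0.37) at a level of 0.695 to 3.67 CPM, and Csnk1e, a kinase of PER proteins, had -0.36 (SE 0.14), with edgeR adjusted p of 0.339, 0.268 and 0.290. By group, the 11 transcription factors of the loop had medians of -0.10 (fat) and 0.08 (liver) on the log2 scale, the 12 kinases, ligases and phosphatases -0.02 and 0.06, the 10 cofactors 0.04 and 0.06, and the 14 rhythmic outputs -0.07 and -0.10.

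The genes whose levels followed Clock most closely over the 10 fat and the 10 liver libraries, among 12447 compared, were Mcts1, Mrs2, Vapa, Tmtc3 and Pdcl. Their Pearson r with Clock lay between 0.83 and 0.91 in each tissue. None is a clock gene on the lists used here. Their GC content was between 38.6% and 47.6%, below the median of 49.4% over the genes compared, as is that of Clock. The 5 genes most like Dbp were Pcsk4, Zfp687, Tns2, 2310011J03Rik and Dele1, with r between 0.74 and 0.88 and GC contents between 51.0% and 61.1%. The likeness is over all libraries of a tissue, genotype differences included, and the libraries differ in their GC trends; the part of base composition in these rankings was not tested.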

How the data were processed

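Per the labels' protocols, an RNeasy kit (Qiagen) gave the RNA and TruSeq Stranded mRNA the libraries. The authors deposited RSEM expected counts, 1 column per library and not normalized; per the submitters' processing notes, RSEM 1.2.12, STAR 2.4.0d, Trim Galore 0.2.8 and DESeq2 were used with the build GRCm38. The sources used here give neither the annotation release nor the strand setting of the counting. Whether reads of a gene and of an overlapping antisense gene were counted apart is therefore unknown.

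After rounding of the expected counts, low genes were removed by filterByExpr of edgeR (at least 10 counts, total at least 15) and libraries scaled by TMM within each comparison. Comparisons used the quasi-likelihood test of edgeR 4.0.16 (R 4.3.3, robust fit) with Benjamini-Hochberg adjustment over all genes tested and a threshold of 0.05; DESeq2 1.42.0 and limma-voom (limma 3.58.1) were alternatives. Log2 CPM used a prior count of 2. Relations between members used group-centred log2 CPM and two-sided permutation within groups (100000 resamples), adjusted over the relations of a family (18 with Arntl or Dbp in both tissues, 9 in fat without library 3 of each genotype, 10 between fat and liver). Levels per kilobase used merged exons of the GRCm38 annotation. P-values cover the spread between the 5 mice of a group. The steps were tested on simulated data.

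The genes named are the 10 members, other clock genes that were called or had an unadjusted p under 0.05 in a tissue (up to 4 per list and tissue), and the 5 genes most like Clock and the 5 most like Dbp. A gene that this rule names is not reported here. The members and the gene lists were chosen with earlier results of these data known.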

Additional observations from a re-analysis of the deposited data

Results flagged for a closer look

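Each member was examined for a library far from the other 4 of its group, in 40 groups of values, and 4 were found; by chance alone about 1 in 20 groups of this size is marked in this way. Arntl in WT fat library 3 was at 5.77 CPM, with the nearest other WT fat library at 2.10 CPM. This library also had the highest macrophage marker sum in fat (3900 CPM), and the part of those cells was not tested. Nr1d1 in KO fat library 1 was at 238 CPM, with the nearest other at 173 CPM. In KO liver library 5, Per3 was at 94.0 CPM (nearest 108 CPM) and Cry2 at 38.7 CPM (nearest 56.1 CPM). That library had the steepest GC trend (-0.402 on the log2 scale per 10 percentage points), and the GC contents of Per3 and Cry2 are 52.4% and 55.6%; whether the trend accounts for these values was not tested.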

How the results depend on the processing

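In fat, 0 genes were called under every alternative, each fit without 1 library included, except DESeq2, which called 13. In liver the call of 1 gene became 137 with DESeq2, 15 with no filter on low counts, 2 with GC and length trends removed, 3 without WT liver libraries 2 and 4 (which held skeletal muscle transcripts; chosen after seeing the data) and 0 to 3 without 1 library at a time. For the KO effect in fat minus that in liver, DESeq2 called 2 genes and the other alternatives 0. The number of genes differing between WT fat and WT liver stayed between 10537 and 12839.

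With the replicate number as a replicate block, 0 genes were called in fat, 3 in liver, 0 for the difference between tissues and 10537 between WT tissues. No label says that the numbers pair samples, and the samples were treated as unpaired: over all genes, same-numbered libraries had correlations of their deviations from -0.227 to 0.505, over 0.1 in 3 of 5 WT fat and KO fat pairs and in 0 to 2 of 5 in the other comparisons, and at most 2 of 5 correlated best with their own number.

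With plain library sizes (chosen after seeing the data), the WT fat against WT liver differences of Per1, Per2, Per3, Cry1, Cry2 and Dbp turned from negative to 0.703, 0.048, 0.673, 0.211, 0.683 and 0.403 on the log2 scale; Per2 and Cry1 lost their calls, Per1, Per3, Cry2 and Dbp were called higher in fat, and so were Clock (0.953) and Arntl (1.363). The cause is in the scaling itself, which moved the median of all genes to 0.974. Of the relations with Arntl, 3 passed in the main analysis and 5 with GC and length trends removed. Of those with Dbp, 0 passed, and 1 passed with the trends removed. All of these except the main analysis with Arntl were chosen after seeing the data. The cause of the changes was not tested. In the KO against WT differences in fat, Clock, Arntl, Npas2, Per1, Per2, Per3, Nr1d1 and Dbp kept their sign in every alternative and Cry1 and Cry2, which were near 0, changed it in 6 and 3. In liver only Arntl and Cry1 changed sign, in 4 and 5. Depth limits Arntl in liver and Npas2 in both tissues most.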

Other observations

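Genes that respond to temperature and feeding were described beside the clock, because both can set the phase of peripheral clocks. Of 10 such genes (Cirbp, Rbm3, Hspa8, Hsp90aa1, Hspa1b, Sik1, Crem, Nr4a1, Fos and Egr1), 0 were called in either tissue by edgeR or limma-voom. DESeq2 called 1, Fos in liver (adjusted p = 2.76e-06), named after its values were seen. Their median log2 difference, KO minus WT, was -0.02 in fat (range -0.21 to 0.54) and -0.25 in liver (range -1.41 to 0.12). In liver 9 of 10 were negative and 3 had an unadjusted p under 0.05, where 13.1% of all genes did.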
